A study of Drosophila melanogaster with 2 samples.

Results

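The regions described here are the stretches of open chromatin on the euchromatic X chromosome of Drosophila melanogaster mushroom body (MB) nuclei. Peaks of both replicates that overlapped by at least 1 bp were merged, and a merged region was kept where it held a peak of each replicate. Of 14656 such consensus regions in all, 2087 (14.2%) lay on X with a start below 22000000 bp of release 6 of the genome, and a further 47 lay nearer the centromere and were left out. They were set against 12107 regions on the euchromatic parts of the autosomal arms, 2695 on 2L, 2682 on 2R, 3130 on 3L and 3600 on 3R. The assay was ATAC-seq, in which the Tn5 transposase cuts accessible DNA and leaves sequencing adapters there. The data comprised 2 biological replicates of 1 condition, naive adult flies that had not been trained, each a pool of 50 to 60 fly heads, and the study's methods describe male flies for this isolation. The flies carried a w* allele on X, UAS-unc84::2xGFP over tubGal80(ts), and the non-targeting P{VALIUM20-mCherry.RNAi}attP2 over the R14H06-Gal4 driver. This driver uses an enhancer fragment of rut and is active in postmitotic MB neurons, so that GFP marks their nuclear envelopes and anti-GFP beads pull the tagged nuclei out of the head homogenate.

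Fly males have a single X and a pair of each autosome. In males the MSL complex, a set of proteins with the noncoding RNAs roX1 and roX2, spreads over active X-linked genes, and its acetyltransferase Mof marks them with H4K16 acetylation, which accompanies higher transcription per gene copy. MB neurons, the Kenyon cells, are the memory neurons of the fly brain, and several classical memory genes, among them rut and dnc, are X-linked. In these data the number of X copies and the openness of each copy cannot be told apart, because only the sum of reads over all copies was measured.

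Each peak had a fold enrichment from the peak caller, the pileup of reads at the summit over the background expected there, with a constant of 1 added to both. The caller takes as background the higher of a genome-wide level and a level local to the peak. From the fold and the deposited p-value, the whole-number pileup and the background of all 17942 peaks of replicate 1 and all 15248 peaks of replicate 2 were recovered. The genome-wide background was 244.7 reads deep in replicate 1 and 115.1 in replicate 2, a ratio of 2.13, so that replicate 1 was the deeper library. Summit height below is the summit pileup divided by this genome-wide level of the same replicate, which is the same divisor for every arm. All 6 Kenyon cell markers (ey, dac, toy, prt, Fas2 and rut) had a region within 500 bp of a gene end, against 0 of 2 glial, 0 of 2 neuroblast and 1 of 3 photoreceptor markers, the last being Rh3. Over all protein-coding genes of the 6 arms this share was 66.1%, so these few markers say little about purity. The Rh3 region had a fold of 6.99 and 6.69 in replicates 1 and 2. Rh4 had 1 region, which was not at a gene end. Reads at rut can include those of the fragment in the driver. The photoreceptor share of the nuclei was not tested.

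Called open regions were less dense on X than on any autosomal arm. Sites too low to pass the caller's threshold are missing from these counts. How far the number of X copies enters the density through that threshold was not tested. X had 94.9 regions per Mb, against 131.8 per Mb on the autosomal arms together and 122.5 to 139.1 on the single arms. Replicate 1 alone gave 114.8 peaks per Mb on X and 161.9 on the autosomal arms, and replicate 2 alone gave 98.1 on X and 137.3 on the autosomal arms. The 1 Mb windows of X held 94.9 ± 17.2 regions (SD, n = 22 windows), and those of the autosomal arms held 132.2 ± 18.1 (SD, n = 91 windows). Each of the 22 X windows lay below the autosomal window median of 133, and 4 of the 91 autosomal windows lay below the X median of 96. With 5 arms an exact permutation test over arms cannot give a p under 0.2 and windows of the same libraries are not replicates, so the differences between X and the autosomal arms are given without a test, beside the range over arms and both replicates.

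**Figure D1:**
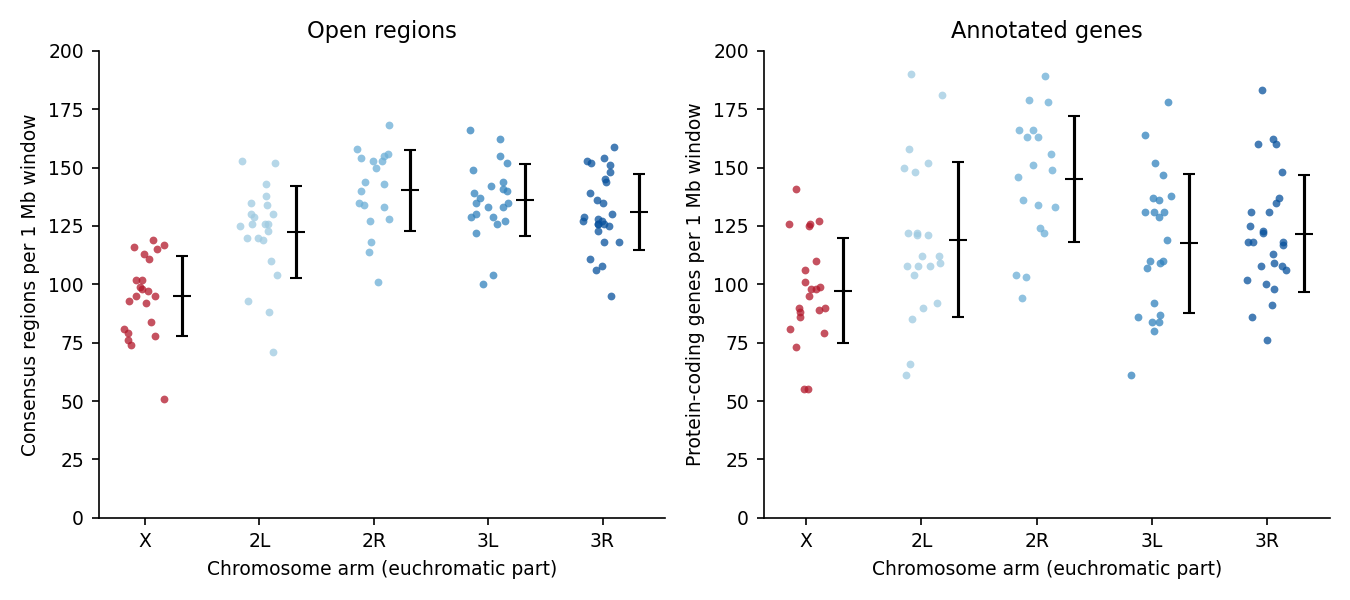
Each point is a 1 Mb window of a euchromatic chromosome arm, with the number of consensus regions (left) and of annotated protein-coding genes (right) on the vertical axis, and the bars beside the points are the mean and SD over windows. The X windows hold 51 to 119 regions, against 71 to 168 in the autosomal windows.

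The X also had fewer annotated genes, 97.2 protein-coding genes per Mb against 124.4 on the autosomal arms (117.5 to 143.8). Counted per protein-coding gene, there were 0.976 regions on X and 1.06 on the autosomal arms, and the X value lay inside their range of 0.967 to 1.16. Consensus regions took up 9.99% of the base pairs of the euchromatic X and 13.9% of those of the autosomal arms (12.8 to 15.2%). Across the 22 X windows the number of regions and of protein-coding genes had a Pearson correlation of 0.61 and a Spearman correlation of 0.59, and across the 91 autosomal windows 0.30 and 0.38. Neighbouring windows share libraries and gene families, so these values are descriptions only.

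The median fold enrichment hardly separated X from the autosomal arms, while the median summit height did. In the upper part of the range, fold was lower on X as well. At the 95th percentile it was 5.56 and 5.48 on X (replicates 1 and 2) against 6.33 and 6.32, ratios of 0.879 and 0.867. The median fold of X regions was 2.73 in replicate 1 and 2.60 in replicate 2, against 2.75 and 2.64 on the autosomal arms, and in both replicates X lay within the range of the arms (2.66 to 2.84 and 2.53 to 2.71). Among regions with a -log10 q of at least 10 in both replicates, X lay below each arm. There the fold, averaged over the replicates, was 3.08 on X against 3.13 to 3.24 on the arms. The median summit height of the same X regions was 3.23 times the genome-wide background in replicate 1 and 2.97 times in replicate 2. The autosomal regions had medians of 3.85 (3.71 to 4.08 over arms) and 3.67 (3.56 to 3.86). X regions thus reached 0.84 and 0.81 of the autosomal median height, below each of the 4 arms in each replicate. By window, the median height was below the autosomal window median in 21 of the 22 X windows in replicate 1 and in 22 of 22 in replicate 2.

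The gap in height grew toward the tallest regions. At the 5th percentile, summit height was 1.51 and 1.44 on X (replicates 1 and 2) against 1.52 and 1.46 on the autosomal arms. At the 75th percentile it was 4.98 and 4.73 on X against 6.70 and 6.63, and at the 95th 7.78 and 7.47 on X against 11.9 and 12.2, which is 0.66 and 0.61 of the autosomal value. The tallest X region reached 12.2 and 12.9 times the genome-wide background, against 18.7 to 21.4 and 20.5 to 23.2 for the tallest region of each autosomal arm. At least 8 times the genome-wide background in both replicates was reached by 70 of the 2087 X regions (3.35%) and by 2074 of the 12107 autosomal regions (17.1%). At this height X had 3.18 regions per Mb and the autosomal arms had 22.6 (19.6 to 24.9). Every region in the lists had passed the caller's threshold, so sites on any arm that were too low to be called are missing from these medians, and the 5th percentile lies close to that threshold.

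**Figure D2:**
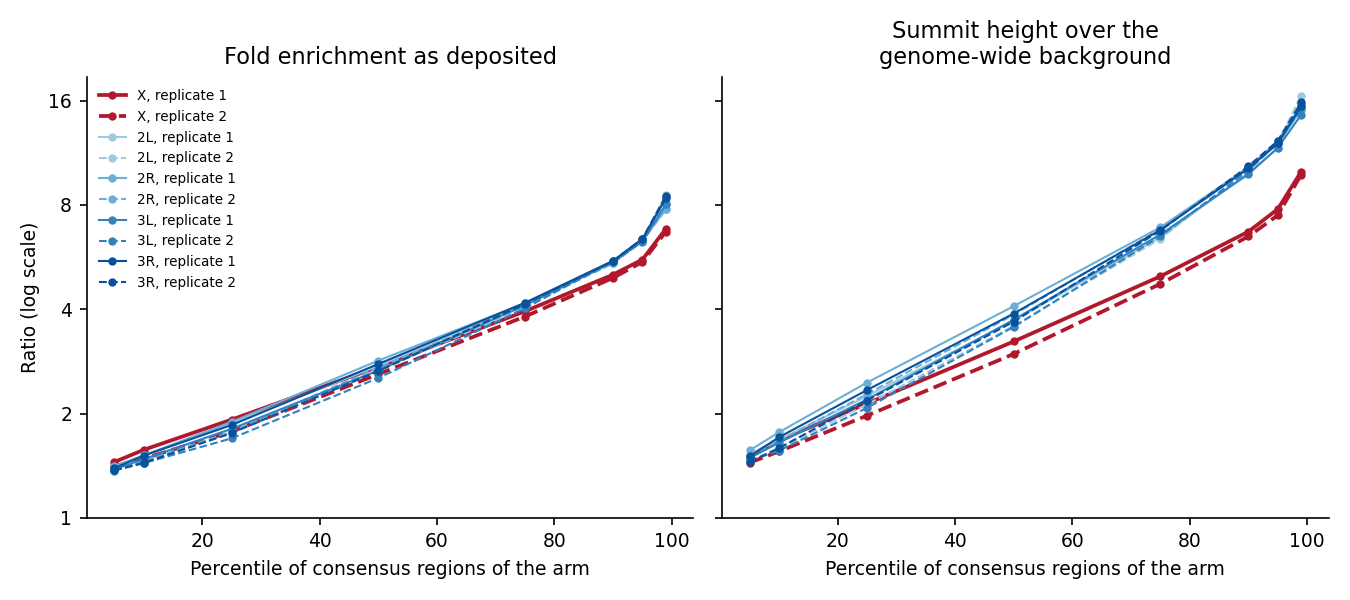
Percentiles of consensus regions (horizontal axis) against the fold enrichment as deposited (left) and the summit height over the genome-wide background (right), both as ratios on a log scale, for X (red) and the autosomal arms (blue), with replicate 1 as solid and replicate 2 as dashed lines. The X line runs with the others for fold up to the median and lies below them for height, with 7.78 and 7.47 against 11.9 and 12.2 for the pooled autosomal arms at the 95th percentile.

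The background used by the caller was lower on X as well. The fold was taken against the genome-wide level, with no higher local level, for 52.3% of X regions in replicate 1 and 56.3% in replicate 2, against 30.1% and 31.4% of autosomal regions (23.9 to 33.2% and 25.7 to 34.2% over arms). Each of the 22 X windows exceeded the autosomal window median of this share in both replicates. At the 90th percentile the background was 1.78 and 1.72 times the genome-wide level on X, against 2.39 and 2.43 times on the autosomal arms. Among regions with a local background above the genome-wide level in both replicates, the median fold was 3.12 on X and 3.11 on the autosomal arms (3.05 to 3.12). Among regions set against the genome-wide level in both replicates it was 2.36 on X and 2.07 on the autosomal arms (2.03 to 2.11).

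X and autosomal regions differed most in height where they covered gene ends. The gene table gives the start and end of each gene without its strand, so that a gene end here is either end, and the promoter is at one of them. The 427 X regions that covered at least 2 gene ends had median heights of 4.56 and 4.39, against 6.20 and 6.14 for 2431 autosomal regions, ratios of 0.73 and 0.71. The 491 X regions that covered 1 gene end had 3.74 and 3.49, against 4.93 and 4.76 for 2605 autosomal regions. The 855 X regions inside a gene and over 500 bp from any end had 2.60 and 2.41, against 2.87 and 2.68 for 4646 autosomal regions, ratios of 0.91 and 0.90. The 137 X regions outside genes and over 500 bp from any end had 2.68 and 2.50, against 2.89 and 2.73 for 1445 autosomal regions. On every arm the regions that covered gene ends were the tallest class.

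**Figure D3:**
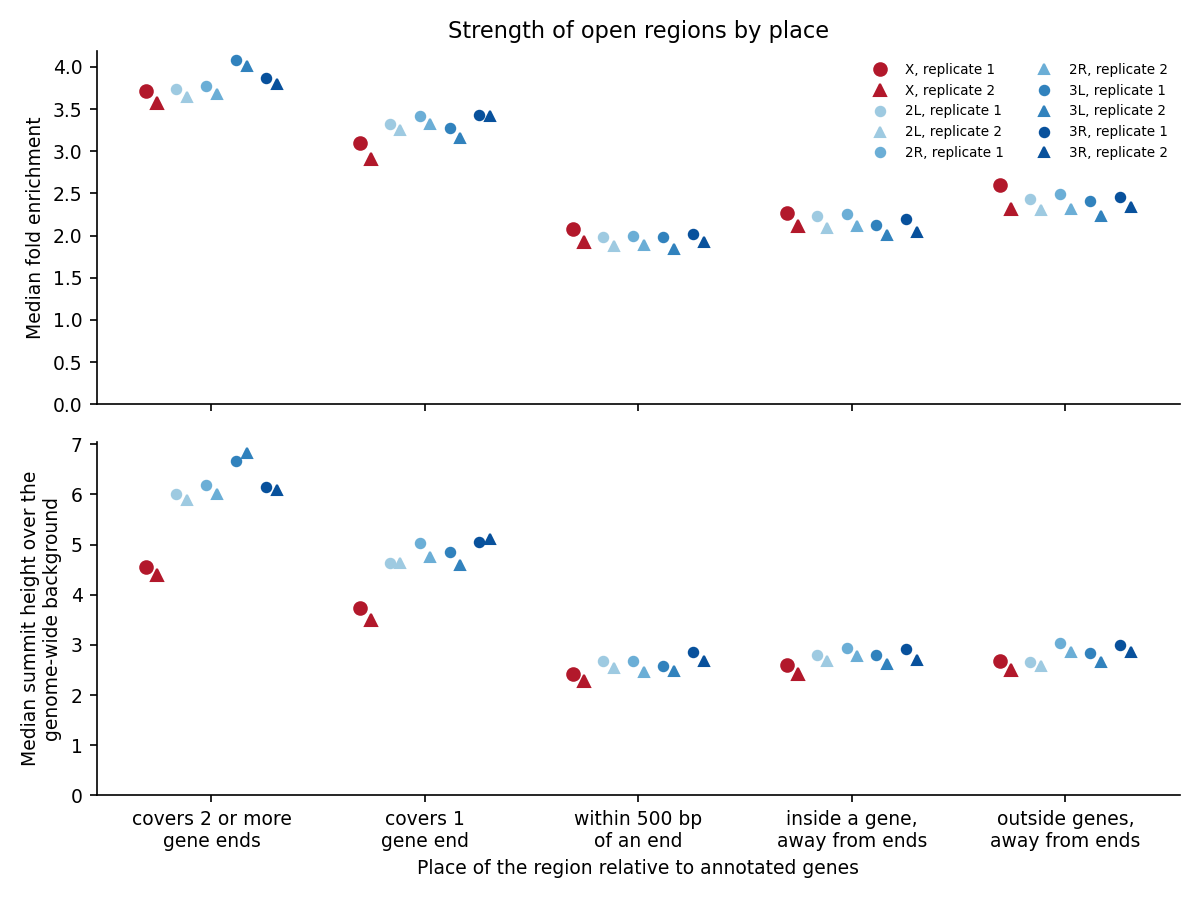
Median fold enrichment (top) and median summit height over the genome-wide background (bottom) of consensus regions in 5 places relative to annotated genes, for X (red) and the autosomal arms (blue), with circles for replicate 1 and triangles for replicate 2. The X points fall clearly below the others for height at covered gene ends, 4.56 and 4.39 against 6.20 and 6.14 for the pooled autosomal arms, and near them elsewhere.

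Fold at gene ends kept part of this difference. X regions within 500 bp of a gene end had a median fold of 3.14, averaged over the replicates, against 3.33 for autosomal regions (3.26 to 3.38). Away from gene ends the median fold was 2.24 on X and 2.19 on the autosomal arms (2.12 to 2.23), a difference of 0.05 with an SD of 0.05 over the 4 arms. Among regions with a -log10 q of at least 10 in both replicates the order turned, with 2.68 on X and 2.72 on the autosomal arms.

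A smaller share of X regions than of autosomal regions lay outside genes. Of the X regions, 192 overlapped no annotated gene, 9.20% (95% Wilson interval 8.03 to 10.5%), against 15.0% of autosomal regions (14.3 to 15.6%, and 12.5 to 16.3% over arms). Genes covered 77.6% of the base pairs of the euchromatic X and 72.3% of those of the autosomal arms (70.3 to 75.2%), and the median protein-coding gene was 2543 bp long on X and 2062 bp on the autosomal arms. Within 500 bp of a gene end lay 52.5% of X regions (50.3 to 54.6%) and 49.7% of autosomal regions (48.8 to 50.6%), with X inside the range of the arms of 47.7 to 53.7%. These intervals cover counting error over regions only. The nearest gene end belonged to a protein-coding gene for 88.9% of X regions and 81.6% of autosomal regions, and to a long noncoding RNA gene for 6.52% and 12.4%.

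The median width of X regions lay within the range of the autosomal arms. It was 882 bp on X, with quartiles of 533.5 and 1421 bp, and 922 bp on the autosomal arms (852.5 to 989.5 bp). At least 2500 bp wide were 83 X regions (3.98%) and 418 autosomal regions (3.45%, 2.81 to 3.69% over the arms), so that X lay above each arm in the share of wide regions. Seen from the genes, 1381 of 2138 protein-coding X genes (64.6%) had a region within 500 bp of an end, against 66.2% on the autosomal arms (62.4 to 68.4%). Over the protein-coding genes of all 6 arms this share was 66.1%, 9198 of 13922 genes, which is the background for the gene counts that follow. A region at an end of a listed gene can also cover an end of a neighbouring gene.

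Among the X-linked genes of dosage compensation and sex determination, 5 of 9 had a region at a gene end. Among them were 3 of the 7 protein-coding genes, against the background of 66.1%, and both roX genes, which are noncoding. The noncoding RNA gene roX1 had a region of 2119 bp over 1 of its ends (X:3860752-3862870), with a fold of 5.33 and 5.25 in replicates 1 and 2 and a height of 6.996 and 6.78. At roX2 a region of 2580 bp spanned the whole gene (X:11578467-11581046), with a fold of 4.43 and 4.45 and a height of 6.67 and 6.65. This region covered 4 gene ends in all. Both roX regions exceeded the X medians of fold and height in each replicate. The acetyltransferase gene mof had a weaker region over its own end, with a fold of 1.77 and 1.51, and another within 500 bp of it that covered an end of the neighbouring gene GAA1, with 2.62 and 2.19. Sxl, the switch gene of female sex determination, had a region over 1 end with a fold of 3.42 and 3.41, and 2 weaker regions inside the gene. At snf, which encodes a splicing factor needed for Sxl, the region had a fold of 3.99 and 4.06. It also covered an end of Cdk7. The X-linked signal genes sisA, sc, run and upd1, which act in the early embryo to count X chromosomes, had no region.

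Of the 14 genes of memory and neuron identity, 13 (92.9%) had a region at a gene end and all 14 had at least 1 region, 109 in all, counting a region once for each listed gene it lay at. They are long genes with a median length of 47073 bp. The cAMP phosphodiesterase gene dnc spans 167328 bp and had 21 regions. The strongest of them lay over its lower end (X:3174932-3176767) with a fold of 5.996 and 5.67, and it also covered an end of CG3939. Inside the gene lay 19, with folds between 1.34 and 5.29 in replicate 1. One of these inner regions (X:3190785-3191565) had a fold of 5.29 and 5.34 with no gene end within 14345 bp. The adenylyl cyclase gene rut had 5 regions, with a fold of 5.08 and 4.70 over its upper end and of 4.33 and 4.36 and of 4.31 and 4.42 at a pair of sites inside the gene. The driver carries a fragment of rut, and its reads cannot be told from those of the gene itself. Fas2, an adhesion molecule of the MB lobes, had a fold of 5.08 and 5.30 at its end, and the dopamine receptor gene Dop2R had 4.63 and 4.62. The clock gene per had a single region (X:2684489-2686450), with a fold of 5.33 in both replicates and a height of 10.98 and 10.2. Its height stood well above its fold, since the local background there was high. The neuronal RNA-binding protein gene elav likewise had a fold of 3.07 and 3.10 and a height of 8.38 and 8.06, and Appl, the fly amyloid precursor-like gene, had 4.32 and 4.55 with heights of 9.77 and 9.39.

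The regulators of neuron identity in time had strong regions inside their genes. Imp, an mRNA-binding protein, had 7 regions, none within 500 bp of its ends, with a strongest fold of 4.12 and 4.06. The transcription factor gene mamo had 12, and its strongest region lay inside the gene, 3610 bp from the upper end (X:13986347-13986917), with a fold of 5.57 and 5.84. The stronger of those at its ends had 4.79 and 4.40, but lay 55 bp outside mamo and covered an end of AMPdeam. The gene br had 7 regions, with a fold of 3.12 and 2.68 for the one at a gene end and of 4.87 and 5.04 for the strongest one inside the gene. The former also covered an end of dor. The gene rugose (rg), which encodes a protein kinase A anchor protein, had 12 regions. The one at a gene end, which also covered an end of CG15465, had a fold of 2.32 and 2.17. The strongest one inside the gene had 5.10 and 5.47.

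Of the 16 ion channel and synapse genes, 15 (93.8%) had a region at a gene end. The Shaker potassium channel gene Sh had 23 regions over 138941 bp, more than any other X gene, and the region at its upper end (X:18062922-18063846) had a fold of 7.17 and 6.16. The nicotinic receptor gene nAChRalpha7 followed with 5.86 and 4.93, and the potassium channel gene SK with 5.06 and 4.87. The sodium channel gene para had 7 regions, with a fold of 2.73 and 2.88 at its end and of 4.64 and 4.08 at the strongest region inside it. The NMDA receptor gene Nmdar2 and the microtubule-associated gene futsch combined modest folds, 3.97 and 4.35 and 3.53 and 3.41, with heights of 9.20 and 9.70 and of 8.38 and 8.22. The NSF gene comt, required for vesicle fusion, had no region.

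All 10 listed chromatin and transcription genes had a region at a gene end, with a median fold of 3.89 in replicate 1 and 3.997 in replicate 2. The tallest were the Polycomb genes ph-p and ph-d, which are neighbouring copies of each other, and the bromodomain gene fs(1)h. They had heights of 10.96 and 11.6, of 10.2 and 9.42, and of 10.7 and 10.7, with folds of 4.19 and 4.35, of 5.59 and 5.33, and of 3.58 and 3.52. At the H3K4 methyltransferase gene trr, the region over its own end had a fold of 4.44 and 4.39, and it also covered an end of mRpL16. Another, 15 bp outside trr and over an end of Coa8, had 4.78 and 4.19. The gene wds encodes a shared subunit of the COMPASS methyltransferase complexes. The region over its own end had 2.13 and 2.04, and it also covered an end of CG13760. Another, 174 bp outside wds and over an end of egh, had 3.59 and 3.81. At their ends the deacetylase genes HDAC6 and HDAC4 differed, with 6.10 and 6.17 for HDAC6 and 1.86 and 2.097 for HDAC4. The end region of HDAC4 also covered an end of CG15743. Its strongest region lay inside the gene, with 3.05 and 3.13.

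**Figure D4:**
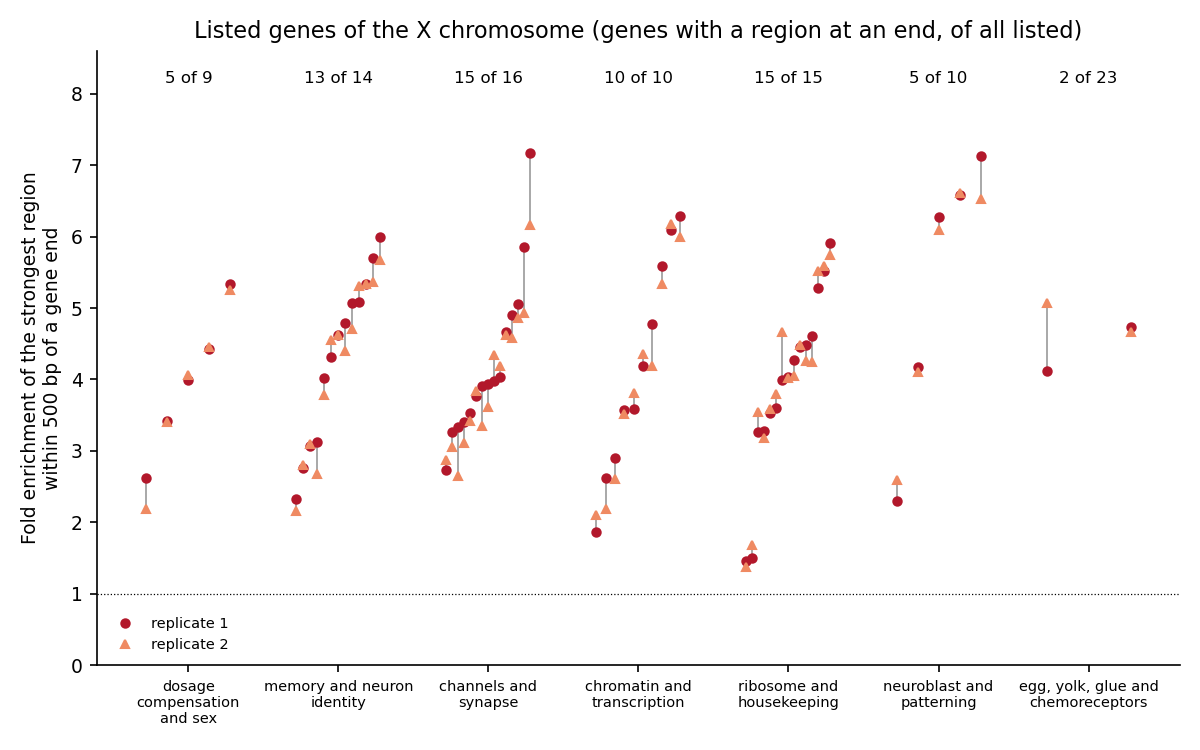
Fold enrichment of the strongest region within 500 bp of a gene end (vertical axis) for listed X genes that had such a region, with circles for replicate 1 and triangles for replicate 2 joined by a line, and with the number of genes with such a region of all listed above each column. Most points lie between 2 and 6, and the column of egg, yolk, glue and chemoreceptor genes holds 2 of 23.

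All 15 housekeeping genes had a region at a gene end, with folds between 1.46 (Zw, glucose-6-phosphate dehydrogenase) and 5.90 (RpL37-1) in replicate 1. Act5C, a cytoplasmic actin gene, had a fold of 3.60 and 3.80 and a height of 7.03 and 7.33. Of the tandem ribosomal protein genes RpS14a and RpS14b, the strongest regions had folds of 1.51 and 1.69 and of 4.61 and 4.24. That of RpS14a lay 46 bp outside the gene and covered an end of Dhdds, and that of RpS14b also covered an end of Ubr3. Their near-identical sequences make both values uncertain, because reads of multiple loci had been removed.

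Genes of other tissues were mostly without a region. Of 23 egg-shell, yolk, salivary glue and chemoreceptor genes, 2 (8.70%) had a region at an end, 21 had none, and both exceptions lay next to or inside another gene. The region nearest to Yp3 lay 38 bp from it and covered an end of a neighbouring gene. The region at Sgs4, which sits inside dnc, was also counted among the dnc regions, with a fold of 4.11 and 5.08. Among 10 neuroblast and patterning genes, 5 had a region at an end and 3 (ase, ac and l(1)sc, proneural genes) had none at all. The strongest end region had a fold of 7.13 and 6.53 at btd, 6.58 and 6.61 at oc and 6.28 and 6.09 at ct. It had 4.18 and 4.11 at N and 2.30 and 2.60 at Sp1. The homeobox gene vnd had a fold of 6.65 and 6.07 at a region inside the gene and none at its ends.

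Parts of w, v and rut are carried by the transgenes of these flies, so that reads of the endogenous gene and of a transgene copy cannot be told apart. The eye color gene w had a region of 2043 bp over its lower end with a fold of 4.93 and 5.14. This region also covered an end of CG32795. A weaker one at the other end of w had 2.88 and 2.65. The vermilion gene v had none.

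The highest mean fold on X belonged to a region of 2514 bp inside nAChRalpha3 (X:8293604-8296117), 17154 bp from the nearest gene end, with a fold of 8.07 and 10.1. It was followed by a region at the end of the axon guidance gene NetB (8.48 and 7.52), at CG46311 (7.98 and 7.96), at GCS2alpha, a subunit of glucosidase II (8.005 and 7.55), and at the zinc-finger gene disco (7.63 and 7.89). The other 5 of the first 10 lay inside the long noncoding RNA gene lncRNA:CR32773, 16888 bp from an end of CG12684 (7.78 and 7.66), inside Mur2B (7.44 and 7.64), and at the ends of the GTPase gene Rab35 (7.47 and 7.60), of CG3106 (7.40 and 7.50) and of CG32647 (7.41 and 7.44). Only disco was also among the 5 tallest X regions, at 11.3 and 12.9 times the genome-wide background. The tallest of all lay 422 bp from an end of Rilpl (X:1397759-1400096), with a height of 12.2 and 12.9 and a fold of 3.32 and 3.54.

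The widest X region measured 4585 bp and lay at an end of CG3638 (X:1232263-1236847), with a fold of 2.45 and 2.43. The next lay at east (4360 bp, over 6 gene ends), lawc and Trf2 (4027 bp), PpV and Marf (3863 bp), and hang and AnxB11 (3849 bp). None of these 5 had a fold above 4.12 in either replicate. The 5 regions with the lowest mean fold had 1.25 to 1.33 and lay at an end of IntS2, inside CG17841, inside Bx, inside mamo and inside CG2865. That of IntS2 had a height of 2.91 and 2.84, so that its low fold came with a high local background, while that in Bx was set against the genome-wide level in both replicates.

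Along X the number of regions per 1 Mb window varied from 51, between 21 and 22 Mb, to 119, between 18 and 19 Mb. The sparse window held 55 protein-coding genes and had the highest median fold of the X windows, 2.98, and the dense window held 98 genes with a median fold of 2.65. The longest stretch without a region ran over 109725 bp (X:361074-470798), with no peak in either replicate. It holds 6 protein-coding genes, the proneural genes ac, sc, l(1)sc and ase, and Pgcl and Cyp4g1. Another stretch of 99565 bp (X:20657444-20757008) holds run, hydra and 3 other genes, again with no peak in either replicate.

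Most replicate 1 peaks on X overlapped a replicate 2 peak. Of 2525 such peaks 2130 did, 84.4% (95% Wilson interval 82.9 to 85.7%), against 83.2% (82.6 to 83.8%) on the autosomal arms. The X regions hold a peak of each replicate by rule, so the values over regions below leave out peaks that the replicates did not share. Exactly 1 peak of each replicate was held by 95.7% of X regions. Across the 2087 X regions the log2 folds of the replicates had a Pearson correlation of 0.982 (across regions, which are not independent replicates). On the autosomal arms it was 0.988 (0.9874 to 0.9880), so that X lay below each arm. The SD of the log2 ratio of the folds was 0.122 on X, above each arm (0.113 to 0.116). The fold was higher in replicate 1 than in replicate 2 by a median of 1.05 times on X and of 1.03 times on the autosomal arms. It was over 1.25 times higher in replicate 1 in 48 of the 2087 X regions and in 141 of the 12107 autosomal regions. In the opposite direction this was so for 1 X region, the one inside nAChRalpha3 that had the highest mean fold, where replicate 2 alone would place it first and replicate 1 would place it behind NetB.

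**Figure D5:**
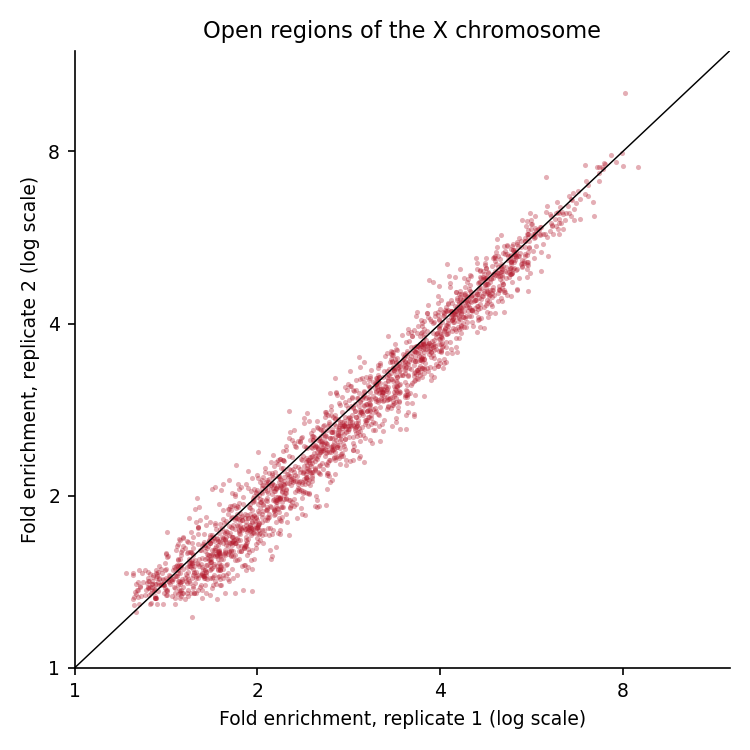
Fold enrichment of each of the 2087 X regions in replicate 1 (horizontal axis) and replicate 2 (vertical axis), both as ratios on log scales, with the line of equal values. The points follow the line closely, and the point that stands above it at the top right is the region inside nAChRalpha3, at 8.07 and 10.1.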

How the data were processed

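Per the labels and the study's methods, the authors trimmed ATAC-seq reads with Trimmomatic (0.39), aligned them with Bowtie2 (2.4.1) to release 6 (dm6), shifted them by +4 and -5 bp for the Tn5 offset, and removed reads of multiple loci, mitochondrial and scaffold reads and PCR duplicates. The authors called peaks in each replicate with MACS2 (2.1.2) at a q of 0.01. The deposited lists give for each peak a fold (a ratio to the background), the p-value and the q-value as -log10, a score of 10 times the -log10 q, and positions. They hold no read counts. Fold and -log10 p were inverted together to whole summit pileups and backgrounds, which returned the deposited -log10 p within 0.0025 for every peak. This step was added after the data were seen, and its code recovered simulated pileups.

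Regions were placed against the gene spans of the RefSeq table for release 6. The value of a region is that of its highest peak in each replicate. Autosomal limits were starts below 22000000 (2L) and 23000000 (3L), and from 6000000 (2R) and 4500000 (3R). Medians, shares and windows were compared without tests between regions. Named genes are all genes of 8 lists (1 item is not reported here and was taken out of its list), and the nearest or overlapping genes of the 10 highest, 5 widest and 5 lowest X regions by fold or width, with the densest and sparsest windows and the longest gap. The 5 tallest regions, the second gap named and the regions that differ between replicates were chosen after their values were seen. The members and the lists were chosen with earlier results of these data known. Calculations used Python (3.11.15), numpy (2.4.6), scipy (1.17.1), pandas (2.3.3) and matplotlib (3.10.9).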

Additional observations from a re-analysis of the deposited data

How the results depend on the processing

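Values below are X over the pooled autosomal arms, and the cause of each move was not tested. The number of X regions (2087) stayed within 1.5 times, at 1700 to 2525, under the alternatives planned for it. With a minimum height of 8 times the genome-wide background in both replicates, chosen after seeing the data, it fell to 70. The density ratio was 0.720, becoming 0.728 when both replicates needed a -log10 q of 10 or more, 0.736 with X limited to 21000000 bp, 0.797 over whole arms and 0.921 per protein-coding gene, where X entered the range of the arms. With each replicate left out it was 0.709 to 0.714. Chosen after seeing the data, minimum heights of 4 and 8 times the genome-wide background gave 0.537 and 0.141. The coverage ratio (0.720) was 0.727 with a reciprocal overlap of 50%, 0.725 at the stricter q, 0.735 with X to 21000000 bp, 0.795 over whole arms, and 0.717 with either replicate left out. The ratio of median folds (0.986) was 0.842 for -log10 q in place of fold, 0.991 to 1.02 with a replicate left out, and, chosen after seeing the data, 0.839 and 0.810 for height in replicates 1 and 2, and 1.14 for the fold of only those regions that the caller had set against the genome-wide background in both replicates. At the stricter q it was 0.967, and X then lay below each arm. At gene ends the ratio (0.943) was 0.764 and 0.735 for height, and 0.931 to 0.957 with a replicate left out. Away from gene ends (1.02) it was 1.01 with the reciprocal overlap and 1.03 to 1.05 with a replicate left out, and it reversed to 0.986 at the stricter q and to 0.908 and 0.894 for height. The ratio of gene-end shares (1.06) was 1.04 with the reciprocal overlap and at the stricter q, 1.05 with X to 21000000 bp and over whole arms, 1.11 with protein-coding genes only, and 1.059 to 1.063 with a replicate left out. That of shares outside genes (0.615) was 0.590 with the reciprocal overlap and 0.647 to 0.681 with a replicate left out. That of genes with a region (0.976) was 0.963 over whole arms, 0.969 with a window of 1000 bp, 0.985 for covered ends and 0.977 to 0.985 with a replicate left out. That of replicate agreement (1.01) was 1.02 with the reciprocal overlap, and it reversed to 0.993 at the stricter q and to 0.994 with equal numbers of peaks. No paired analysis was possible because there was 1 condition. Promoter motifs and TSSs as reference points were not run, because neither strand nor sequence was at hand. Read totals per peak were not given, so that depth enters only through the recovered pileups, and replicate 2 had the lower one.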

Other observations

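The ribosomal protein genes allow a comparison of one gene family between X and the autosomal arms. They were chosen by symbol after the data were seen, so that paralogs such as RpS5a and RpS5b are both included. All 14 such genes on X had a region within 500 bp of a gene end, as had 64 of 67 on the autosomal arms, and the background over protein-coding genes is 66.1%. Their strongest regions had a median fold of 4.36 and 4.25 on X in replicates 1 and 2, against 3.71 and 3.79 on the autosomal arms, and over single arms the median ran from 3.42 to 3.85 in replicate 1. The order was the other way round for height. The X genes had a median height of 4.78 and 4.66 times the genome-wide background, against 7.03 and 6.997 for the autosomal genes, and the single arms had medians of 5.81 to 8.61 in replicate 1. The X heights ran from 3.28 (RpS15Aa) to 8.49 (RpS14b) in replicate 1, and the autosomal heights from 2.17 (RpS5b) to 13.9 (RpS28a), so that the groups overlapped.

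Of tRNA genes, 10 of 24 on X had a region at an end (41.7%), against 177 of 266 on the autosomal arms (58.2 to 73.5% over the arms). Of long noncoding RNA genes it was 72 of 232 on X (31.0%), against 606 of 1645 on the autosomal arms (35.9 to 38.2%). For both kinds X lay below each autosomal arm. Of miRNA genes it was 13 of 54 on X (24.1%), against 72 of 196 on the autosomal arms (23.6 to 43.9%), so that X lay within their range. Of snoRNA genes it was 13 of 31 on X against 98 of 233, which are nearly equal shares. Many of these genes lie in clusters or inside other genes and share a region, tRNA copies can be near-identical and reads of multiple loci had been removed, and these differences were not tested.

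Regions over gene ends held most of the tallest X regions. Of the 70 X regions at least 8 times the genome-wide background in both replicates, 29 covered at least 2 gene ends, 21 covered 1, 17 lay inside a gene away from its ends and 0 of 137 lay outside genes and away from ends, which allows a share of up to 2.19% (3 counts, counting error only). On the autosomal arms 95 of 1445 regions of this last kind were as tall (6.57%). The share was lower on X in the other places too. It was 6.79% against 31.3% over at least 2 gene ends and 4.28% against 25.6% over 1. Within 500 bp of an end it was 1.69% against 7.86%, and inside a gene away from ends 1.99% against 10.2%. Of the 2074 autosomal regions this tall, 760 covered at least 2 gene ends and 668 covered 1, so that gene ends held most of them as well.

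After Sh, the X genes with the most regions were the adhesion molecule gene kirre with 22 over 394149 bp, dnc with 21, the teneurin gene Ten-a with 19 over 291517 bp and, with 16 each, the kinase gene Tlk over 69764 bp and the noncoding RNA gene lncRNA:CR44357 over 239347 bp. The second gap named above is the third longest on X, after one of 103189 bp that holds CG17707.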
